A study of Mus musculus with 18 samples.

Results

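The 8 genes described here encode homeostatic and lymphoid-tissue chemokines and their receptors: the ligands Cxcl13, Ccl19, Cxcl12, Cxcl14 and Cxcl16 and the receptors Cxcr5, Ccr7 and Cxcr4. They were taken by symbol from the 18585 genes of the expression table, and all 8 passed the filter on low values (at least 10 normalized counts in at least 4 of 18 libraries). The study compared arthritic with control forepaws of C57BL/6 mice that had or lacked Sema3b, a secreted class 3 semaphorin. Expression was measured by CEL-seq, a method that sequences 3′ tags of RNA, so levels of different genes are not compared here. The 4 groups were Sema3b-/- with arthritis (5 libraries), wild type (WT) with arthritis (5 libraries), Sema3b-/- control (4 libraries) and WT control (4 libraries). The strain, the tissue and the RNA protocol were the same in all groups. The sources used here do not give the arthritis model, the ages of the mice or the part of Sema3b that was removed.

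Homeostatic chemokines are made in the steady state by stromal, epithelial and myeloid cells and place leukocytes within tissues, in contrast to inflammatory chemokines, which are induced at sites of injury. In lymphoid organs Cxcl13 from follicular stroma draws Cxcr5-bearing B cells into follicles, and Ccl19 draws Ccr7-bearing T cells and mature dendritic cells into T cell zones. Cxcl12 acts through Cxcr4 and holds progenitor cells and neutrophils in the bone marrow. Inflamed joints can contain lymphoid aggregates in which the same ligands are made. Bulk RNA of a whole paw holds bone marrow, skin and muscle beside the joint, and fewer cells of a type and less RNA per cell cannot be told apart in it.

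The 8 genes lie on 7 chromosomes of mm10. Cxcl13 is at chr5:95956951-95961068 on the plus strand, Ccl19 at chr4:42754525-42756577 on the minus strand, Cxcl12 at chr6:117168535-117181367 on the plus strand and Cxcl14 at chr13:56288643-56296551 on the minus strand. Cxcl16 is at chr11:70453983-70459984, Cxcr5 at chr9:44511787-44561877, Ccr7 at chr11:99144196-99155077 and Cxcr4 at chr1:128588199-128592293, all on the minus strand. The annotation places protein-coding genes on the opposite strand across Ccl19, Cxcl16 (Zmynd15) and Cxcr5 (Bcl9l), and 2 pseudogenes are named after Ccl19. The sources used here do not say whether reads were counted by strand, so the values of Ccl19, Cxcl16 and Cxcr5 could include reads of these neighbours and are uncertain to that extent.

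Promoters are shown for the ligand that changed most (Cxcl13), for Cxcl14, and for Cxcl12, which did not pass the test in any comparison. Each is the 250 bases before the RefSeq gene start on GRCm38.p6, read 5′ to 3′ on the strand of the gene, at chr5:95956689-95956938, chr13:56296552-56296801 and chr6:117168285-117168534 in the order given. Capitals mark matches to 3 motifs searched on both strands: GGGAGATTT (the letters of the kB site described for the noncanonical NF-kB dimer at mouse Cxcl13), GGGANTTTC (a general kB form) and TATAAA (a core promoter element).
Cxcl13: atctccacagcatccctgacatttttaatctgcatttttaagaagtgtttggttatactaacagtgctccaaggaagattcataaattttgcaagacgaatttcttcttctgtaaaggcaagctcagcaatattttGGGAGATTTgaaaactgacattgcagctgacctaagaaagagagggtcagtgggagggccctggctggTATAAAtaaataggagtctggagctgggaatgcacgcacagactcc
Cxcl14: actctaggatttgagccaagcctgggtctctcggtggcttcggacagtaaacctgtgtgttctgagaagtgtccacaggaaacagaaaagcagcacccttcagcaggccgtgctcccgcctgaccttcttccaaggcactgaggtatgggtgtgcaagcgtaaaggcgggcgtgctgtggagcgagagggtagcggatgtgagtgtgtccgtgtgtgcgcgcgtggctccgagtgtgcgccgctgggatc
Cxcl12: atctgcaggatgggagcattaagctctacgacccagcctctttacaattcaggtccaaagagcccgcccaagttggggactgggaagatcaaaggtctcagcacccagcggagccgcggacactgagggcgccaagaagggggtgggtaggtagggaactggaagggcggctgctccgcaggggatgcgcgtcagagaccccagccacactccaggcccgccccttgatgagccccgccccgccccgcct
In Cxcl13, GGGAGATTT began 114 bases and TATAAA 46 bases before the gene start, and the window was 42% G and C. GGGAGATTT was taken from a site described at Cxcl13, so its match there follows from that choice. The shares over all promoters do not test this match. Over all 32851 RefSeq promoter windows of this length, 0.283% held GGGAGATTT on either strand, 0.941% held GGGANTTTC and 12.4% held TATAAA. The Cxcl14 and Cxcl12 windows, at 59.6% and 64.4% G and C, held none of the 3 motifs, nor did that of Ccl19. The Ccl19 window (chr4:42756366-42756615) lies mostly inside the gene as placed above, so it says little about the bases before that gene. The Cxcr4 window held TATAAA at 30 bases before the start, overlapping a match on the other strand. No match says only that these letters are not in this window, and a match is not shown to be a bound site.

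The 18 libraries held 1732783 reads (Sema3b-/- control replicate 1) to 19464892 reads (WT arthritis replicate 2). Sema3b followed the genotype labels, at 0 to 7.2 normalized counts in the 9 Sema3b-/- libraries and 23.7 to 67.5 in the 9 WT libraries. By Xist and Y-linked genes, 4 of 5 Sema3b-/- arthritis libraries, 1 of 5 WT arthritis libraries, 2 of 4 Sema3b-/- control libraries and 4 of 4 WT control libraries were female, so sex differed between the groups. Titles also differ in form. Those of Sema3b-/- arthritis replicates 1 and 2 and WT arthritis replicate 5 carry RA beside a genotype code with a number. Those of the other 7 arthritis libraries begin with Joint, and those of all controls begin with MI. What this form stands for is not given, and between control and arthritis it cannot be told apart from the treatment. The labels do not state that each library is a separate animal, so a p-value here weighs a difference against library-to-library spread, which may be technical. All levels below are normalized counts, and fold changes are log2 differences fitted by limma, with SE, on log2(normalized count + 1). For genes with few reads the fitted size depends on the added 1.

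In Sema3b-/- paws, 4 of the 5 ligands rose with arthritis and no receptor passed the test. Cxcl13, Cxcl16, Ccl19 and Cxcl14 were called higher (limma adjusted p under 0.05 over 13809 genes), where 12.4% of all genes were called in either direction, 6.84% higher and 5.55% lower. Levels of all 4 did not overlap between Sema3b-/- arthritis and Sema3b-/- control libraries, which held for 7.13% of all genes in that direction. The median log2 fold change of the 8 genes was 0.95, against -0.01 over all genes. In WT paws 0 of the 8 were called, where limma called 4.21% of all genes, 2.64% higher and 1.58% lower. Unadjusted, 3 of the 8 had a limma p under 0.05 in WT, as did 2934 of all 13809 genes. In Sema3b-/- 4 of the 8 and 3941 of all genes did. The median log2 fold change of the 8 genes in WT was 0.40, against -0.02 over all genes. On recovered reads edgeR and DESeq2 each called 3 of the 8 higher in WT arthritis (Cxcl13, Cxcl16 and Cxcr4), where they called 3.77% and 6.2% of all genes higher.

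**Figure D1:**
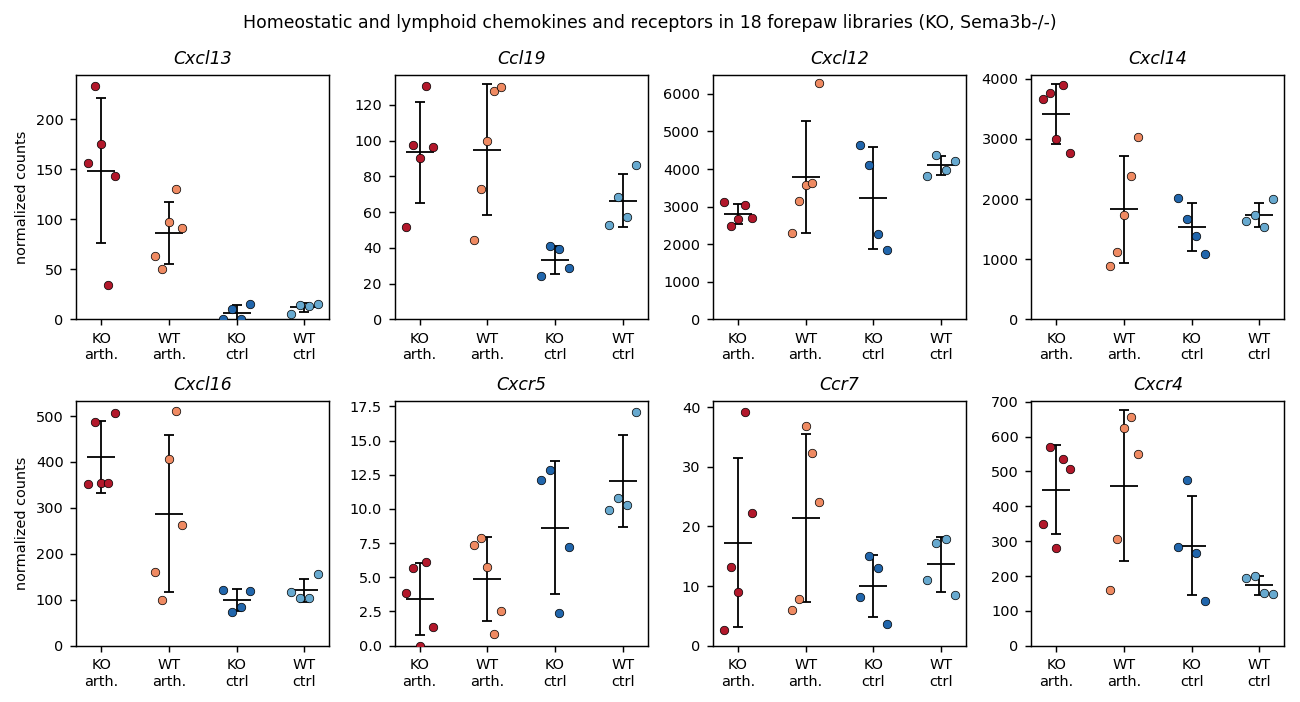
Each panel gives normalized counts (linear axis from 0) of 1 gene in each library of Sema3b-/- arthritis (KO arth.), WT arthritis, Sema3b-/- control and WT control paws; points are libraries, horizontal marks the mean and bars the SD (n = 5, 5, 4 and 4). Cxcl13, Ccl19, Cxcl14 and Cxcl16 of Sema3b-/- arthritis lie above every Sema3b-/- control library, while Cxcl12, Cxcr5, Ccr7 and Cxcr4 overlap.

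Cxcl13, the B cell attractant, gave the largest change of the 8. It had 157, 233, 175, 34.9 and 144 normalized counts in Sema3b-/- arthritis replicates 1 to 5, against 0, 10.1, 0 and 15.6 in Sema3b-/- control replicates 1 to 4. The lowest arthritic library, replicate 4, still lay above the highest control library. Means were 149 ± 72.2 (SD, n = 5) in Sema3b-/- arthritis and 6.41 ± 7.74 (SD, n = 4) in Sema3b-/- control, a ratio of 23.2. The log2 fold change was 5.11 ± 0.76 (SE, limma adjusted p = 0.00105). Both zeros rest on no reads, where a count of 0 allows up to 3 reads, or 12.1 normalized counts in control replicate 1 and 3.56 in replicate 3, so the fitted size depends on the scale. It was 3.82 with a pseudocount of 5, 5.64 with a pseudocount of 0.5, 4.25 with edgeR and 4.32 with DESeq2, and it was called under each of these settings. Without Sema3b-/- control replicate 1 or 3 it was 4.49, and without replicate 4 it was 5.84. Among females Cxcl13 was 34.9 to 233 in 4 Sema3b-/- arthritis libraries and 0 and 15.6 in 2 controls, and among males 144 in 1 Sema3b-/- arthritis library and 0 and 10.1 in 2 controls.

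In WT paws Cxcl13 had 63.6, 50.6, 97.7, 130.1 and 91.3 normalized counts with arthritis, against 5.53, 14.4, 13.1 and 15.3 in controls. All 5 arthritic libraries lay above the 4 controls, as 5.82% of all genes did, but the limma call narrowly missed its threshold. Means were 86.7 ± 31.1 (SD, n = 5) and 12.1 ± 4.48 (SD, n = 4), a ratio of 7.16. The log2 fold change was 2.75 ± 0.76 (SE, limma adjusted p = 0.0502, 95% interval 1.15 to 4.36). The adjusted p was 0.0138 with edgeR, 3.82e-05 with DESeq2, 0.013 with a pseudocount of 5 and 0.205 with sex as a term. The call was made when any of 6 libraries was left out (Sema3b-/- arthritis 4, WT arthritis 2 and each of the 4 Sema3b-/- controls), and adjusted p ran from 0.0256 to 0.145 over all 18 libraries left out in turn. No WT control was male, and the lone female WT arthritis library had 63.6 normalized counts of Cxcl13, against 5.53 to 15.3 in the 4 female controls.

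Ccl19, the ligand of Ccr7, was higher with arthritis in Sema3b-/- paws. It had 51.8, 97.6, 90.5, 130.7 and 96.5 normalized counts in Sema3b-/- arthritis, against 24.3, 40.8, 39.2 and 28.8 in Sema3b-/- control. The groups did not overlap. Means were 93.4 ± 28.1 (SD, n = 5) and 33.3 ± 8.01 (SD, n = 4), and the log2 fold change was 1.43 ± 0.31 (SE, limma adjusted p = 0.0073). In WT paws Ccl19 had 44.4, 72.8, 100.03, 127.6 and 129.9 with arthritis, against 53.1, 68.6, 57.2 and 86.1 in controls, with overlapping groups. The log2 fold change in WT was 0.44 ± 0.31 (SE, limma adjusted p = 0.427, 95% interval -0.21 to 1.08). With arthritis the means of both genotypes were close (93.4 in Sema3b-/- and 94.9 in WT), while the control means were 33.3 in Sema3b-/- and 66.2 in WT.

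Cxcl16, a membrane-bound chemokine and scavenger receptor of macrophages and dendritic cells that binds Cxcr6, had 351, 486, 354, 354 and 506 normalized counts in Sema3b-/- arthritis, against 121, 72.6, 84.3 and 119.9 in Sema3b-/- control. Every arthritic library lay above every control library. Means were 410.2 ± 78.8 (SD, n = 5) and 99.6 ± 24.8 (SD, n = 4), and the log2 fold change was 2.05 ± 0.36 (SE, limma adjusted p = 0.00238). In WT paws it had 159.7, 98.6, 406, 511 and 262 with arthritis, against 116, 104, 104 and 157 in controls. Arthritis replicate 2 lay below the controls, and the other 4 lay above. The log2 fold change in WT was 1.03 ± 0.36 (SE, limma adjusted p = 0.108, 95% interval 0.28 to 1.79), and without WT arthritis replicate 2 it was 1.36 and was called (adjusted p = 0.0106). Cxcr6, its receptor, averaged 7.84 ± 5.96 normalized counts in Sema3b-/- arthritis (SD, n = 5) and 4.36 ± 0.653 in Sema3b-/- control (SD, n = 4), with a limma adjusted p of 0.587.

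Cxcl14, a chemokine of skin and other epithelia whose receptor is not settled, was high in every Sema3b-/- arthritis library. It had 3668, 3764, 3005, 3889 and 2771 normalized counts there, against 2015, 1669.9, 1389 and 1085 in Sema3b-/- control. The groups did not overlap. Means were 3419.5 ± 498 (SD, n = 5) and 1539.8 ± 397 (SD, n = 4), and the log2 fold change was 1.17 ± 0.28 (SE, limma adjusted p = 0.0133). With the title form of the arthritis libraries as a term the log2 fold change was 0.95 and was not called (adjusted p = 0.0523). In WT paws it had 889, 1118, 1739.6, 2379 and 3032 with arthritis, against 1637, 1735, 1538 and 2002 in controls. WT arthritis libraries lay on both sides of the controls, and the log2 fold change was -0.05 ± 0.28 (SE, limma adjusted p = 0.935, 95% interval -0.64 to 0.54), with its sign turned at 0.10 in edgeR. The lone female WT arthritis library had the lowest Cxcl14, 889, against 1538 to 2002 in the 4 female controls.

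Cxcl12, the ligand of Cxcr4 and of the scavenging receptor Cxcr7 (Ackr3), showed no call in either genotype. It had 3129, 2491, 2684, 3056 and 2709.6 normalized counts in Sema3b-/- arthritis, against 4645, 4116, 2284 and 1853 in Sema3b-/- control, and the arthritic libraries lay inside the range of the controls. The log2 fold change was -0.10 ± 0.26 (SE, limma adjusted p = 0.839, 95% interval -0.64 to 0.45), and its sign turned without Sema3b-/- control replicate 1 (0.11) or 2 (0.05). In WT it had 2293, 3155, 3579, 3619 and 6292 with arthritis, against 3816, 4370.3, 3981 and 4213 in controls. Replicate 5 was the only WT arthritis library above the controls, and the log2 fold change was -0.19 ± 0.26 (SE, limma adjusted p = 0.70, 95% interval -0.74 to 0.35). Cxcr7 averaged 123 ± 36.1 normalized counts in Sema3b-/- arthritis (SD, n = 5) and 142 ± 14.8 in Sema3b-/- control (SD, n = 4), with a limma adjusted p of 0.554.

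Among the receptors, Cxcr5, which carries B cells and follicular helper T cells towards Cxcl13, was near the limit of detection. It had 3.89, 5.69, 0, 6.1 and 1.39 normalized counts in Sema3b-/- arthritis, against 12.1, 12.9, 2.37 and 7.2 in Sema3b-/- control, from 0 to 23 reads a library. In WT it had 7.39, 7.85, 5.75, 0.851 and 2.54 with arthritis, against 9.95, 10.8, 10.3 and 17.1 in controls. All WT arthritis libraries lay below the WT controls, as 4.71% of all genes did, while the Sema3b-/- groups overlapped. Cxcr5 reached 10 normalized counts in control libraries only, so it passed the filter on low values only through the groups where it is high. Its lower level with arthritis is therefore not independent of the filter. limma gave a log2 fold change of -1.25 ± 0.67 in Sema3b-/- (SE, limma adjusted p = 0.227, 95% interval -2.65 to 0.15) and -1.34 ± 0.67 in WT (SE, limma adjusted p = 0.256, 95% interval -2.74 to 0.06). Cxcl13 and its receptor had fold changes of opposite sign in both genotypes, but the sign of Cxcr5 carries the limit of that filter. Only the fold change of Cxcl13 in Sema3b-/- passed the test.

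Ccr7, the receptor of Ccl19 on naive T cells and mature dendritic cells, had 2.59, 13.3, 9.05, 39.2 and 22.2 normalized counts in Sema3b-/- arthritis, against 8.09, 15.1, 13.1 and 3.6 in Sema3b-/- control. In WT it had 5.91, 7.85, 36.8, 32.3 and 24.1 with arthritis, against 11.1, 17.1, 17.8 and 8.53 in controls. Arthritic libraries lay on both sides of the controls in each genotype, and 2 to 45 reads stand behind these values. Fitted by limma, the log2 fold change was 0.47 ± 0.66 in Sema3b-/- (SE, limma adjusted p = 0.675, 95% interval -0.91 to 1.85) and 0.36 ± 0.66 in WT (SE, limma adjusted p = 0.782, 95% interval -1.02 to 1.74).

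Cxcr4, the receptor of Cxcl12 on most leukocytes and their precursors, had 349, 570.5, 279, 535 and 507 normalized counts in Sema3b-/- arthritis, against 283, 474, 265 and 127 in Sema3b-/- control. Of these arthritic libraries 3 lay above all controls. In WT it had 161, 305, 625, 656 and 549 with arthritis, against 193, 200.3, 151 and 148 in controls, and replicate 1 was the only arthritic library within the range of the controls. limma gave a log2 fold change of 0.73 ± 0.40 in Sema3b-/- (SE, limma adjusted p = 0.241, 95% interval -0.11 to 1.58) and 1.24 ± 0.40 in WT (SE, limma adjusted p = 0.0898, 95% interval 0.39 to 2.09). Without WT arthritis replicate 1 the WT value was 1.57 and was called (adjusted p = 0.0127), and with sex as a term it was 0.48 (adjusted p = 0.604). With sex as a term the Cxcr4 value in Sema3b-/- was 1.02 (adjusted p = 0.05, just above the threshold).

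In Sema3b-/- arthritis against Sema3b-/- control, the authors' deposited table had adjusted p-values of 0.00324 for Cxcl13, 0.00817 for Cxcl16, 0.0236 for Ccl19 and 0.0326 for Cxcl14, with the other 4 genes above 0.05, where 7% of its genes with an adjusted p were under 0.05. In WT arthritis against WT control, the authors' deposited table had 0.0154 for Cxcl13, 0.052 for Cxcr4 and 0.0646 for Cxcl16, and 4.84% of its genes were under 0.05, with no adjusted p for Cxcr5 and Ccr7. The authors' deposited table listed log2 fold changes for Cxcl13 of 4.32 in Sema3b-/- and 2.83 in WT.

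**Figure D2:**
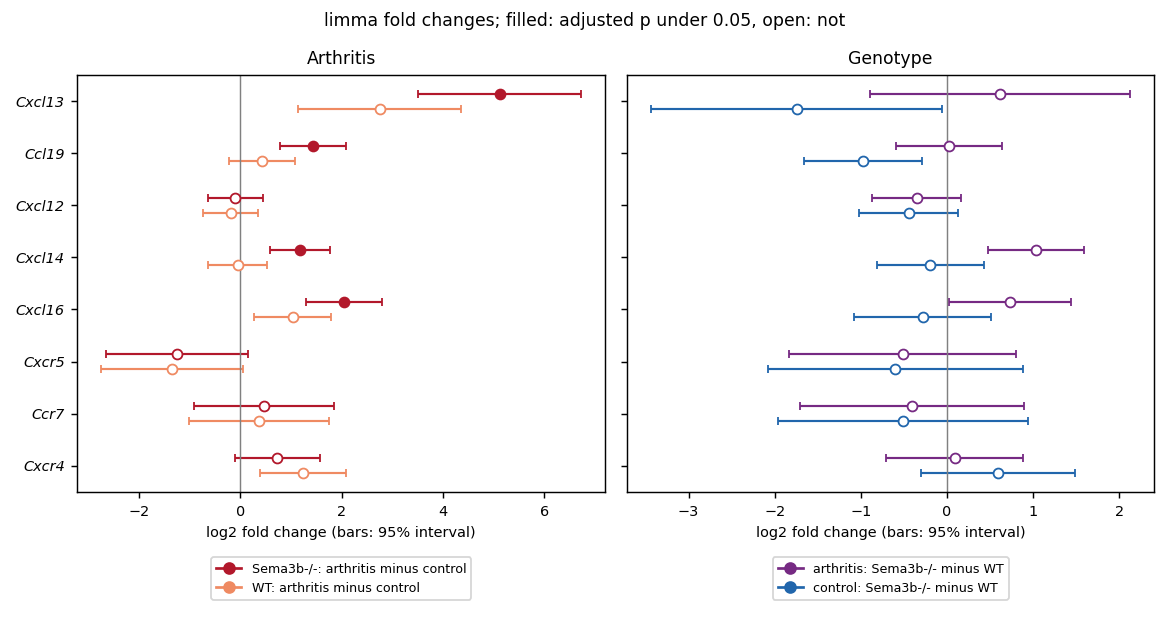
Fitted log2 fold changes (horizontal axis) with 95% intervals for each gene; the left panel gives arthritis minus control within Sema3b-/- and within WT, the right panel Sema3b-/- minus WT with arthritis and in controls. Filled points passed adjusted p under 0.05: Cxcl13, Ccl19, Cxcl14 and Cxcl16 in Sema3b-/- paws, and no gene in the other 3 comparisons.

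Between genotypes, 0 of the 8 genes were called with arthritis by limma, edgeR or DESeq2, where limma called 0.0217% of all genes, edgeR 0.0217% and DESeq2 0.666%. Unadjusted, 2 of the 8 had a limma p under 0.05 (Cxcl14 and Cxcl16), as did 1239 of all 13809 genes. Cxcl14 averaged 3419.5 ± 498 normalized counts in Sema3b-/- arthritis and 1831 ± 887 in WT arthritis (SD, n = 5 each). Its log2 difference was 1.03 ± 0.26 (SE, 95% interval 0.48 to 1.59, limma adjusted p = 0.228, 0.0998 to 0.379 over the other settings tried). The groups overlapped, since WT replicate 5 at 3032 lay above 2 Sema3b-/- libraries, and no member's arthritic groups were free of overlap, where 1.77% of all genes were. Among the libraries titled Joint, Cxcl14 was 2771 to 3889 in 3 Sema3b-/- libraries and 889 to 2379 in 4 WT libraries. Among those titled RA it was 3668 and 3764 in Sema3b-/- and 3032 in the lone WT library. Among females it was 3005 to 3889 in 4 Sema3b-/- libraries and 889 in the lone WT library, and among males 2771 in the lone Sema3b-/- library and 1118 to 3032 in 4 WT libraries. With sex as a term the log2 difference was 1.18 and with title form 0.92. Their part in the result was not tested beyond these values.

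Cxcl16 averaged 410.2 ± 78.8 normalized counts in Sema3b-/- arthritis and 287 ± 171 in WT arthritis (SD, n = 5 each), a log2 difference of 0.73 ± 0.34 (SE, 95% interval 0.02 to 1.44, limma adjusted p = 0.539). WT libraries spanned 98.6 to 511 and enclosed all 5 Sema3b-/- libraries. Cxcl13 was higher in 4 of 5 Sema3b-/- arthritis libraries than in any WT arthritis library, with replicate 4 below all of them, and its log2 difference was 0.62 ± 0.72 (SE, 95% interval -0.90 to 2.13, limma adjusted p = 0.858). For the other 5 genes the log2 difference with arthritis lay between -0.51 (Cxcr5) and 0.09 (Cxcr4), and its sign turned for Ccl19 (-0.023) and Cxcr4 (-0.035) with edgeR.

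**Figure D3:**
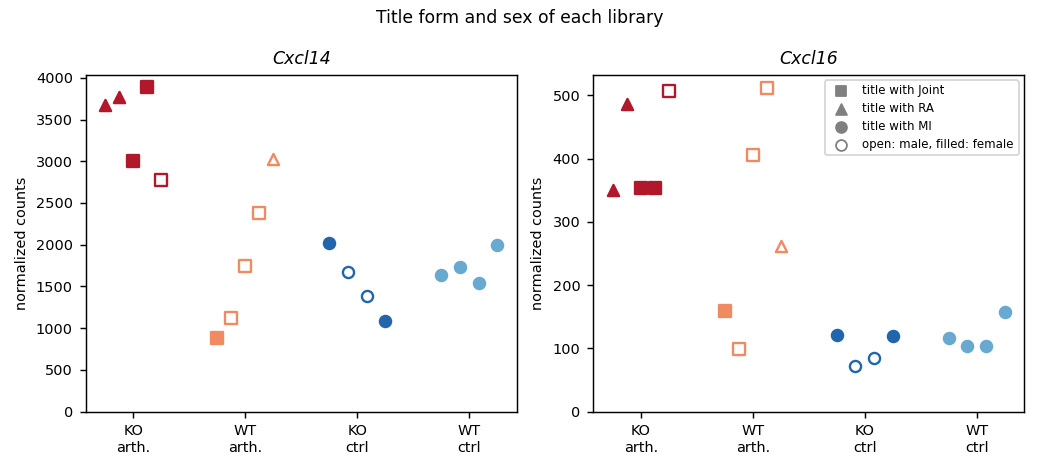
Normalized counts (linear axis from 0) of Cxcl14 and Cxcl16 in each library of the 4 groups, with symbols for the form of the library's title and open symbols for males. In Cxcl14 the Sema3b-/- arthritis libraries lie above WT arthritis libraries of the same title form, 2771 to 3889 against 889 to 2379 for Joint. For RA there is 1 WT library, at 3032, against 3668 and 3764 in Sema3b-/-. Over both title forms the 2 genotypes overlap in Cxcl14 (limma adjusted p = 0.228, not called) and in Cxcl16.

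In controls, 0 of the 8 genes were called between genotypes by limma, edgeR or DESeq2, where limma called 0.0145% of all genes, edgeR 0.0145% and DESeq2 0.0362%. Of the 8, 7 had a lower mean log2 level in Sema3b-/-, among them Cxcr5 and Ccr7, which rest on few reads. The median log2 difference was -0.48 over the 8 and -0.007 over all genes. Sex differed too, since 2 of 4 Sema3b-/- controls and 0 of 4 WT controls were male, and its part was not tested here. An unadjusted limma p under 0.05 was found for 2 of the 8, and for 811 of all 13809 genes. Ccl19 had 24.3, 40.8, 39.2 and 28.8 normalized counts in Sema3b-/- control, against 53.1, 68.6, 57.2 and 86.1 in WT control, and its groups did not overlap, which held for 2.13% of all genes in that direction. Its log2 difference was -0.98 ± 0.33 (SE, 95% interval -1.66 to -0.29, limma adjusted p = 0.793). For Cxcl13 it was -1.75 ± 0.80 (SE, 95% interval -3.44 to -0.05, limma adjusted p = 0.835) and overlapping, with 0 reads in Sema3b-/- control replicates 1 and 3. Its size depended on the scale, from -2.21 with a pseudocount of 0.5 to -0.65 with edgeR, and the ratio of the Sema3b-/- control mean of Cxcl13 to the WT control mean was 0.529. Ccl19 rests on 6 to 73 reads in Sema3b-/- control libraries, the lowest in the shallowest library.

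The test of whether arthritis acted differently in the 2 genotypes called 0 of the 8 genes with limma, edgeR or DESeq2, where limma and edgeR each called 0% of all genes and DESeq2 0.0579%. Unadjusted, 3 of the 8 had a limma p under 0.05, as did 663 of all 13809 genes. The Sema3b-/- arthritis effect minus the WT arthritis effect was 1.23 ± 0.40 on the log2 scale for Cxcl14 (SE, 95% interval 0.39 to 2.06), 2.36 ± 1.08 for Cxcl13 (SE, 95% interval 0.09 to 4.63) and 1.00 ± 0.44 for Ccl19 (SE, 95% interval 0.08 to 1.92). Their limma adjusted p was 0.974 each. The Cxcl13 value depended on the scale as well: it was 1.42 with a pseudocount of 5 (95% interval -0.050 to 2.90), 1.43 with edgeR and 2.83 with a pseudocount of 0.5, and ran from 1.74 to 3.09 over libraries left out. A call in Sema3b-/- and none in WT is therefore not shown to be a difference between genotypes for any of the 8.

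Within groups the 8 genes did not vary as a block. After subtracting group means of log2(normalized count + 1), Pearson's r over the 18 libraries was 0.82 between Cxcl12 and Cxcl14, 0.78 between Ccl19 and Ccr7 and 0.77 between Ccr7 and Cxcr4. Cxcl13 and Cxcr5 both stood apart, with r of -0.06 between them. Against the other 7, r was between -0.18 and 0.24 for Cxcl13 and between -0.29 and 0.08 for Cxcr5. Cxcr5 has few reads, and Cxcl13 had 0 reads in Sema3b-/- control replicates 1 and 3. For Cxcl13, Sema3b-/- arthritis replicate 4 is an example: it had the lowest Cxcl13 of its group (34.9 normalized counts) and the highest Ccl19 (130.7) and Ccr7 (39.2). The genes of a library share its depth and normalization, and r is given as a description.

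By Pearson's r of log2(normalized count + 1) over all 18 libraries, the tested gene most like each member was Psma5 for Cxcl13 (r = 0.93), P2rx4 for Ccl19 (0.87), Tmem163 for Cxcl12 (0.79), H2-Ab1 for Cxcl14 (0.90), Ms4a6d for Cxcl16 (0.97), Kcnj10 for Cxcr5 (0.85), Chmp6 for Ccr7 (0.83) and Cyba for Cxcr4 (0.94). Of the next most alike, for Cxcl14 they were H2-Eb1 (0.88) and Nfkb2 (0.87), and for Cxcl16 Nek6 (0.96) and Ccl2 (0.96). For Cxcl13 they were Znrd1 (0.93) and Ccdc167 (0.93), for Ccl19 C1ra (0.86) and BC028528 (0.86), and for Cxcl12 Pparg (0.79) and Glul (0.78). For Cxcr5 they were Il12a (0.84) and Ihh (0.82), for Ccr7 Pyhin1 (0.77), and for Cxcr4 Rbbp4 (0.94). H2-Ab1, an MHC class II chain, averaged 7309 ± 2055 normalized counts in Sema3b-/- arthritis, 4234 ± 1686 in WT arthritis (SD, n = 5 each), 2906 ± 1032 in Sema3b-/- control and 3470.3 ± 487 in WT control (SD, n = 4 each).

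Of 13 tested genes of a list of other homeostatic and lymphoid chemokines and receptors, 0 were called by limma in Sema3b-/- or in WT. At an unadjusted limma p under 0.05 were 3 in Sema3b-/- and 4 in WT, where 3941 and 2934 of all 13809 genes were. The edgeR counts were 0 and 1 and the DESeq2 counts 3 and 1, and median log2 fold changes were -0.023 in Sema3b-/- and -0.44 in WT. Ccl20, the ligand of Ccr6, had the largest value in Sema3b-/- at 2.36 ± 0.88 (SE, limma adjusted p = 0.0825), and Ccrl1 (Ackr4), which scavenges Ccl19, had -1.26 ± 0.45 (SE, limma adjusted p = 0.0723). Ccl20 averaged 0.597 normalized counts in Sema3b-/- control and 0.276 in WT control, so it passed the filter on low values only through arthritis libraries. By contrast 13 of 16 inflammatory chemokines rose in Sema3b-/- arthritis and 4 of 16 in WT (limma), with median log2 fold changes of 3.34 in Sema3b-/- and 1.89 in WT. The counts of both genotypes lay closer with the count models. edgeR called 12 in Sema3b-/- and 9 in WT, and DESeq2 called 13 in Sema3b-/- and 10 in WT. In WT 11 had an unadjusted limma p under 0.05. Between genotypes with arthritis and in the interaction, 0 of the 16 were called by limma, edgeR or DESeq2, where limma called 0.0217% and 0% of all genes. At an unadjusted limma p under 0.05 were 3 of 16 in each, as were 1239 and 663 of all 13809 genes. A larger count in 1 genotype, here or in the lists below, is not by itself a difference between genotypes. Those with the lowest p in Sema3b-/- included Ccl8 at 3275 ± 999 normalized counts in Sema3b-/- arthritis (SD, n = 5) and 138 ± 71.6 in Sema3b-/- control (SD, n = 4), and Ccl9, Ccl6 and Ccl7, all attractants of myeloid cells, with log2 fold changes of 2.03, 2.46 and 4.81. Of 5 inflammatory chemokine receptors tested, 4 rose in Sema3b-/- (among them Ccr2 and Cxcr2) and 2 in WT (Ccr2 and Cxcr2), while DESeq2 called 4 in each genotype. Ccr2, the monocyte receptor of Ccl2, averaged 688 ± 78.2 normalized counts in Sema3b-/- arthritis (SD, n = 5) and 166 ± 55.0 in Sema3b-/- control (SD, n = 4).

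**Figure D4:**
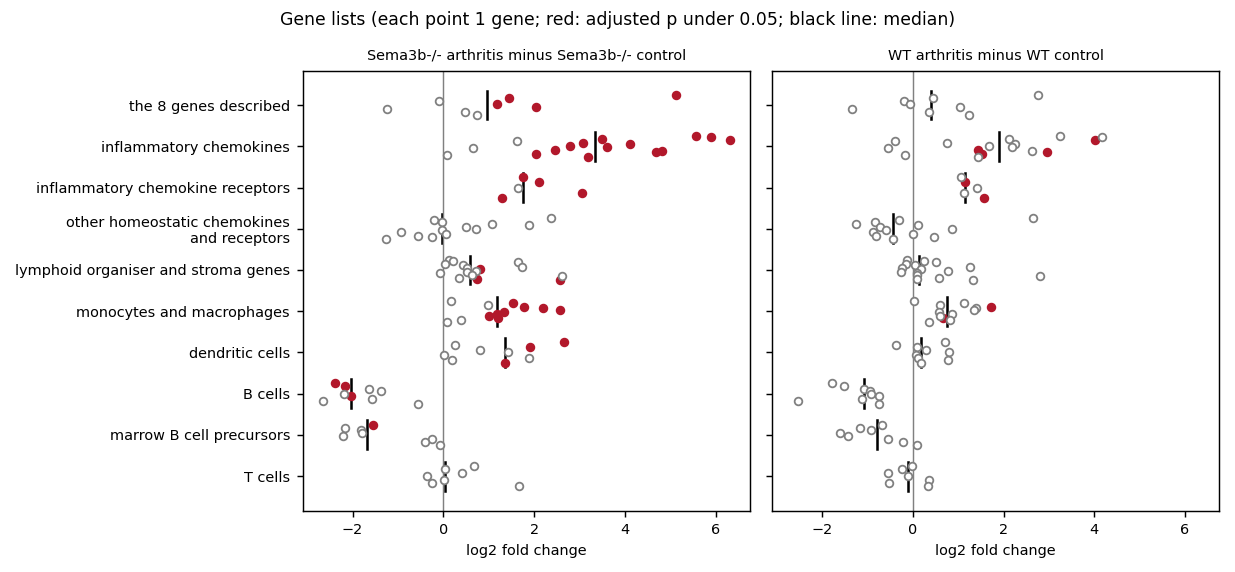
Log2 fold changes of arthritis over control in Sema3b-/- (left) and WT (right) paws for the 8 genes and for lists of related genes and cell type markers; each point is 1 tested gene, red points passed adjusted p under 0.05 and black lines are medians. By limma in Sema3b-/-, 13 of 16 inflammatory chemokines but 0 of 13 other homeostatic chemokines and receptors passed, and 3 of 9 B cell markers passed as lower.

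Of the genes of lymphoid tissue formation and stroma, 3 of 16 tested rose in Sema3b-/- and 0 in WT (limma, with 4 in WT at an unadjusted p under 0.05 and 1 called by edgeR and by DESeq2). The 3 were Pdpn, a stromal surface glycoprotein (log2 fold change 2.56 ± 0.42, adjusted p = 0.00192), Nfkb2, the NF-kB subunit of the noncanonical pathway (0.81 ± 0.20, adjusted p = 0.0168), and the adhesion molecule Icam1 (0.73 ± 0.23, adjusted p = 0.0433), each with its SE. Ltb, a lymphotoxin subunit that induces Cxcl13 in lymphoid organs, averaged 39.6 ± 14.6 normalized counts in Sema3b-/- arthritis (SD, n = 5) and 39.6 ± 25.2 in Sema3b-/- control (SD, n = 4). Glycam1, a mucin of high endothelial venules, averaged 12.7 ± 17.4 normalized counts in Sema3b-/- arthritis and 10.9 ± 11.6 in WT arthritis (SD, n = 5 each) and had no read in either control group, with a limma adjusted p of 0.115 in Sema3b-/- and 0.139 in WT. Chst4, a sulfotransferase of the same vessels, had no read in any Sema3b-/- arthritis library or in either control group, but had reads in WT arthritis. Madcam1, of the same list, went the other way. It had no read in any WT arthritis or Sema3b-/- control library, but had reads in Sema3b-/- arthritis and WT control. Chst4 and Madcam1 failed the filter on low values, so no difference between groups was tested for them. Glycam1 passed it only through arthritis libraries. Depth also differed, with up to 19464892 reads in a WT arthritis library and up to 10083213 in Sema3b-/- arthritis.

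No marker gene of B or T cells, which bear Cxcr5 and Ccr7, was called higher with arthritis. Of all genes limma called 6.84% higher in Sema3b-/- and 2.64% in WT. With 9 B and 7 T cell markers tested, the lack of such a call is near that share. Of 9 B cell markers tested, 3 fell in Sema3b-/- arthritis (among them Cd79a and Blk) and 0 in WT (limma). In WT 4 had an unadjusted p under 0.05, edgeR called 0 and DESeq2 1. In Sema3b-/- edgeR called 2 and DESeq2 6, all lower. The summed B cell list ran from 327 to 1381 normalized counts in Sema3b-/- arthritis, 499 to 1077 in WT arthritis, 878 to 3983 in Sema3b-/- control and 1222 to 2194 in WT control, so the groups overlapped in Sema3b-/- but not in WT. Of 8 marrow B cell precursor genes, 1 fell in Sema3b-/- (Vpreb1, log2 fold change -1.56 ± 0.50 SE, limma adjusted p = 0.0468) and 0 in WT, where 0 had an unadjusted p under 0.05 and edgeR and DESeq2 called 0. In Sema3b-/- edgeR called 1 and DESeq2 3 of these, all lower. Of 7 T cell markers tested, 0 passed in either genotype by limma, edgeR or DESeq2, with 0 at an unadjusted limma p under 0.05, and their summed list ran from 205 to 315 in Sema3b-/- arthritis, 249 to 403 in WT arthritis, 152 to 386 in Sema3b-/- control and 267 to 378 in WT control. Of 6 plasma cell genes tested, 0 passed in either genotype by limma, with 1 in Sema3b-/- and 2 in WT at an unadjusted p under 0.05. For these edgeR called 0 and DESeq2 1 in Sema3b-/- and 0 in WT.

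Of 5 genes of follicular dendritic cells, which make Cxcl13 in follicles, 2 fell in Sema3b-/- (Mfge8 and Fcer2a, of which Fcer2a is also a B cell gene) and 0 in WT (limma). In WT 1 had an unadjusted p under 0.05, edgeR called 0 and DESeq2 called 1 lower, and DESeq2 also called 1 higher in Sema3b-/-. Cr2, the complement receptor of these cells and of B cells, averaged 3.31 ± 1.59 normalized counts in Sema3b-/- arthritis (SD, n = 5) and 8.49 ± 6.19 in Sema3b-/- control (SD, n = 4). Of 9 dendritic cell genes tested, 3 rose in Sema3b-/- (Flt3, H2-Ab1 and Itgax) and 0 in WT, and of 12 monocyte and macrophage genes 8 rose in Sema3b-/- (Mrc1, C1qa, Lyz2 and Fcgr1 with the lowest p) and 2 in WT (Lyz2 and Mrc1) by limma. For the monocyte and macrophage genes edgeR called 9 in Sema3b-/- and 5 in WT, DESeq2 called 9 in Sema3b-/- and 7 in WT, and 10 had an unadjusted limma p under 0.05 in WT. For the dendritic cell genes edgeR called 4 in Sema3b-/- and DESeq2 5, and in WT both called 0, with 0 at an unadjusted limma p under 0.05. The monocyte and macrophage list summed to 14922 to 22560 normalized counts in Sema3b-/- arthritis, 9844 to 23501 in WT arthritis, 8269 to 11803 in Sema3b-/- control and 8819 to 11498 in WT control. The dendritic cell list summed to 5748 to 11867 in Sema3b-/- arthritis, 2209 to 6900 in WT arthritis, 2531 to 4682 in Sema3b-/- control and 3620 to 4671 in WT control. Most of this sum was H2-Ab1, an MHC class II chain. H2-Ab1 averaged 7309 in Sema3b-/- arthritis, where the median sum was 7698, and 3470 in WT control, where it was 3928. The sum thus mainly follows 1 gene and is not a measure of dendritic cells. Of 12 neutrophil genes 2 rose in Sema3b-/- (Cxcr2 and Il1r2) and 1 in WT (Cxcr2) by limma. The order of the genotypes turned with the count models, since edgeR called 2 in Sema3b-/- and 3 in WT and DESeq2 called 2 in Sema3b-/- and 7 in WT, and the median log2 fold change was 0.51 in Sema3b-/- and 1.31 in WT.

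Of the resident tissue lists, 5 of 9 osteoblast and reticular stroma genes, which include sources of Cxcl12 in marrow, fell in Sema3b-/- arthritis and 1 of 9 in WT (limma), against 4 and 1 with edgeR and 6 and 2 with DESeq2. Bglap (osteocalcin) averaged 15.9 ± 10.9 normalized counts in Sema3b-/- arthritis (SD, n = 5) and 243 ± 191 in Sema3b-/- control (SD, n = 4). The summed list overlapped, at 4189 to 8553 in Sema3b-/- arthritis, inside the range of 2991 to 14314 in Sema3b-/- control. In WT it ran from 4356 to 10849 with arthritis and from 6254 to 8814 in controls. Of 10 fibroblast genes 1 rose in Sema3b-/- (Pdpn, also in the stroma list) and 0 in WT, and of 10 endothelial genes 2 fell in Sema3b-/- (Tek and Vwf) and 0 in WT (limma). In WT 1 fibroblast gene and 1 endothelial gene had an unadjusted p under 0.05. Among fibroblast genes edgeR called 1 and DESeq2 2 higher in WT, and in Sema3b-/- each called 1 higher and edgeR 1 and DESeq2 2 lower. Among endothelial genes edgeR and DESeq2 called 0 in WT, and edgeR 1 and DESeq2 2 lower in Sema3b-/-. Of 11 keratinocyte and 10 skeletal muscle genes 0 passed in either genotype by limma or edgeR, while DESeq2 called 1 and 5 lower in Sema3b-/- and 0 in WT. At an unadjusted limma p under 0.05 were 1 keratinocyte and 5 muscle genes in Sema3b-/- and 3 and 1 in WT. Sums varied widely between libraries: keratinocyte genes ran from 3008 to 95010.0 in Sema3b-/- arthritis, 2842 to 112560.0 in WT arthritis, 64237 to 337175 in Sema3b-/- control and 72216 to 114695 in WT control. The part of these cell types in the changes of the 8 genes was not tested.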

How the data were processed

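Total forepaw RNA of 18 libraries was barcoded with CEL-seq primers and read as paired ends, per the labels. BWA, mm10 and DESeq2 1.32 are named in the submitters' processing notes; the sources used here do not give the counting tool or its use of strand. The table deposited by the authors holds a signal (normalized count: reads over a library's size factor) for 18585 genes. Whole reads were recovered from it (100% of values lay less than 0.02 reads from a whole number) and give total reads of 1732783 to 19464892 a library. Tables deposited by the authors also hold a log2 fold change, a p-value and a score per gene and comparison; their fold changes are positive where arthritis or Sema3b-/- is higher.

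Groups and replicate numbers follow the titles; Sema3b-/- control replicates 3 and 4 share an inner number in their titles, and Sema3b-/- arthritis replicate 5, labelled arthritis in title and treatment, has a column name with Ct. The design planned edgeR for raw counts and limma for normalized counts, and the file holds the second. limma-trend (limma 3.58.1, R 4.3.3, robust) was fitted on log2(value + 1) with 4 group means over 18 libraries and 13809 genes at 10 or more in at least 4 libraries, and genes with a Benjamini-Hochberg adjusted p under 0.05 were called. edgeR 4.0.16 and DESeq2 1.42.0 on the recovered reads, pseudocounts of 0.5 and 5, no filter, a filter at 50, upper quartile scaling, sex, title form or a replicate block as a term, and leaving out each library were alternatives. The fits were checked on simulated counts. The 8 genes, the gene lists and the tests were chosen with earlier results of these data known. All 8 genes were named in every comparison, with up to 3 genes most like each by Pearson's r and up to 4 called genes of each list with the lowest p in Sema3b-/- arthritis. Further genes of the lists (Ccl20, Ccrl1, Cxcr6, Cxcr7, Ltb, Glycam1, Chst4, Madcam1 and Cr2) were named after their values were seen. Some genes that these rules pick are not reported here. Genes were matched to GENCODE M21, and older symbols were used where the table has them. Promoters are from RefSeq (GRCm38.p6), which matched 5 of the 8 genes. Limits for a count of 0 (3 reads) cover counting error only. No 2 libraries of a group were alike within sampling noise (lowest chi-square over degrees of freedom 10.1 in 32 pairs).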

Additional observations from a re-analysis of the deposited data

Results flagged for a closer look

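Among 32 sets of a gene in a group, 1 held a library that stood apart: Cxcr5 was 17.1 normalized counts in WT control replicate 4, while the other 3 WT controls were at 9.95 to 10.8, and the gap was 0.876 of the range of the group. Chance flags about 1 in 20 such sets. The value rests on 20 reads.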

How the results depend on the processing

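Over 28 alternative settings, the 4 calls in Sema3b-/- arthritis against Sema3b-/- control held, except that Cxcl14 missed the threshold with title form as a term. In WT arthritis against WT control, 0 of the 8 genes were called; the number was 3 with edgeR and with DESeq2, 1 with a pseudocount of 5 and with a filter at 50, and 0 to 2 when 1 library was left out. None of the 8 was called in the other comparisons under any of the 28 settings. Replicate numbers did not pair libraries (7 of 25 same-numbered pairs had a correlation over 0.1, from -0.658 to 0.414, and 3 of 18 libraries were closest to one with their own number). With the replicate block, all-gene calls were 1020 against 1710 in Sema3b-/- arthritis and 196 against 582 in WT arthritis; Cxcl13 had a log2 fold change of 5.07 and 2.71 there, the block changed no call of the 8 genes, and Cxcl14 came closest (adjusted p = 0.0498). All-gene calls in WT arthritis were 1292 with DESeq2, 133 with sex and 380 with title form, and in Sema3b-/- arthritis 861 with title form; between genotypes with arthritis they were 3, and 92 with DESeq2.

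Signs turned only for uncalled values of at most 0.50 in size on the log2 scale; the cause was not tested. For Sema3b-/- against WT with arthritis, Ccl19 was -0.023 (edgeR) and -0.026 (DESeq2), Cxcr4 -0.035 and -0.036, and Ccr7 0.38 with sex; leaving out a library gave -0.22 to 0.22 for Ccl19, -0.24 to 0.26 for Cxcr4 and -0.79 to 0.081 for Ccr7. For WT arthritis, Cxcl14 was 0.10 (edgeR) and 0.084 (DESeq2), Ccl19 -0.076 and Ccr7 -0.67 with sex, and Cxcl14 ran from -0.27 to 0.17 over libraries left out; Cxcl12 in Sema3b-/- arthritis ran from -0.33 to 0.11. In the interaction, Cxcl12 was -0.082 with edgeR and -0.083 with DESeq2, Cxcr4 0.53 with sex, and Cxcr5 -0.0021 (DESeq2), -0.016 (pseudocount 0.5), -0.72 (sex) and -0.0014 (title form); leaving out a library gave -0.14 to 0.30 for Cxcl12, -0.28 to 0.59 for Ccr7 and -0.35 to 0.54 for Cxcr5. Cxcr5 and Ccr7 fail a filter at 50 and have no value there. Few reads limit Cxcr5 (0 to 23 a library) and Ccr7 (2 to 45).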
